A study of Mus musculus with 8 samples.

Results

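The enzymes and transporters of glycolysis and the pentose phosphate pathway were taken as a list of 35 genes, found by symbol among the 48500 genes of the deposited expression table. They occupied 36 rows of the table because Aldoa has 2 gene models. All 35 genes are accounted for here by their step in the pathway. RNA-seq levels are in FPKM, fragments per kilobase of transcript scaled to the depth of the library. The cells came from mice with acute myeloid leukaemia (AML) driven by HOXA9 and MEIS1, a transcription factor pair that keeps myeloid progenitors from maturing. For each library about 10000 bone marrow cells that carried GFP and c-Kit and lacked Gr-1, the gate the study used for leukaemia stem cells (LSCs), were sorted, and their mRNA was amplified with the Smart-Seq V4 kit. The 4 wild-type libraries (Nynrin+/+, WT1 to WT4) and the 4 knockout libraries (Nynrin-/-, KO1 to KO4) carried the same leukaemia drivers and differed in the labels by genotype alone. The sources used here give neither the age of the mice nor the deleted stretch of Nynrin, nor do they say that each library is a separate mouse. The p-values therefore cover the spread between libraries, which may be technical.

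Glycolysis splits glucose into pyruvate in the cytosol. Its upper steps consume ATP to form a doubly phosphorylated hexose and cleave it, and its lower steps return ATP and NADH. Lactate dehydrogenase turns pyruvate into lactate to regenerate NAD+, and monocarboxylate transporters carry lactate across the membrane. The pentose phosphate pathway branches from glucose 6-phosphate: its oxidative arm makes NADPH, and its non-oxidative arm interconverts ribose 5-phosphate and glycolytic intermediates. Myeloid leukaemia cells and neutrophils are both known for intensive use of glycolysis.

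Library facts bear on all values that follow. The depth recovered from the table ranged from 1.83 M reads in KO3 to 33.1 M in WT1 (M, mega), and 3 reads on a transcript of 1 kb corresponded to 1.64 and 0.0907 FPKM in these libraries. Such a limit covers counting error only. Nynrin stood at 0.008 to 0.286 FPKM in WT and 0.0982 to 0.437 FPKM in the knockout, and its level did not check the labels. Xist was at 15.2 to 26.5 FPKM in WT, 12.7 FPKM in KO1 and at most 0.366 FPKM in KO2 to KO4, and the Y-linked Ddx3y was at most 0.111 FPKM in WT, 2.18 FPKM in KO1 and 18.2 to 20.7 FPKM in KO2 to KO4. Sex and genotype therefore cannot be told apart in 7 of the 8 libraries. Gm10800, an unnamed gene model, stood at 3349 to 6076 FPKM in WT1, KO2 and KO4 and at 28612 to 142258 FPKM in the other 5 libraries.

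Some markers of maturing cells moved with genotype. The summed level of 18 mature neutrophil markers was 3413 to 114450 FPKM in WT and 132215 to 301232 FPKM in the knockout. Of the 18, 9 rose (50%, against 14.0% of all tested genes, limma adjusted p under 0.05), with none at 0. The sum was led by S100a8, S100a9 and Ngp, with knockout means of 92607, 52186 and 39864 FPKM. None of these leading genes was called (limma adjusted p = 0.0975, 0.0943 and 0.0958). By the sum WT1 stood apart, at 3413 FPKM against 60827 to 114450 FPKM in WT2 to WT4. WT1 was also the highest library for Aldoa, Tpi1, Pgam1, Eno1 and Ldha. Of 14 monocyte and macrophage markers 13 were tested and 6 rose (46.2%), and their sum was 9714 to 23375 FPKM against 17945 to 33922 FPKM. Stem and progenitor markers summed to 4791 to 8308 FPKM in WT and 2184 to 5545 FPKM in the knockout, with 5 of 9 lower (55.6%, against 13.8% of all tested genes) and 2 higher. This sum was led by Mpo, Elane, Prtn3 and Ctsg, with WT means of 1446, 759, 1210 and 3332 FPKM. The 5 lower were Cd34, Flt3, Mpo, Prtn3 and Ctsg. Elane had a knockout mean of 1577 FPKM and was not called. The 2 higher were the models of the mouse genes behind the leukaemia drivers, Hoxa9, at 0.569 to 1.90 FPKM in WT and 1.70 to 6.38 FPKM in the knockout (adjusted p = 0.0397), and Meis1, at 0.664 to 0.898 FPKM against 2.03 to 5.13 FPKM (adjusted p = 0.00466). Whether these reads came from the construct or from the mouse genes was not tested. Kit, the gene of the c-Kit gate, was at 2.63 to 6.40 FPKM in WT and 2.92 to 4.91 FPKM in the knockout and was not called (adjusted p = 0.405). Cd34, a progenitor marker, was at 55.7 to 151 FPKM against 5.54 to 7.30 FPKM, and Ly6g, a gene behind the Gr-1 antigen that the sort selected against, at 0.707 to 49.3 FPKM against 93.5 to 264 FPKM. The 14 erythroid markers summed to 11.9 to 15.2 FPKM in WT and 15.5 to 61.2 FPKM in the knockout. Of the 4 tested, 3 rose (75%, against 14.0% of all tested genes). All 3 passed the filter only through the knockout libraries, so a rise was bound to appear among genes kept this way. The other tested marker, Tfrc, led the WT sum, with means of 10.6 FPKM in WT and 7.06 FPKM in the knockout, and was not called. The 4 megakaryocyte markers in the table summed to 0.297 to 3.47 FPKM against 3.67 to 6.19 FPKM. Mast cell and basophil markers summed to 10.3 to 14.3 FPKM in WT and 48.4 to 118 FPKM in the knockout. The 6 B cell markers summed to 162 to 259 FPKM against 169 to 198 FPKM. The 8 T and NK cell markers summed to 0.934 to 10.4 FPKM against 96.5 to 226 FPKM, nearly all of it Nkg7, and Cd3e, which defines T cells, was at most 3.01 FPKM. None of the markers in the table was at 0 in every library. The part of these markers in the results on glycolytic genes was not tested. In sorted bulk cells, fewer cells of a type and less RNA per cell cannot be told apart.

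Genes for 7 glycolytic enzymes between phosphofructokinase and enolase fell in the Nynrin-KO libraries, together with a lactate dehydrogenase and a lactate transporter gene. None of the 6 tested pentose phosphate genes was called on the deposited scale without library weights, where 27.9% of all tested genes were called. Of the 35 genes, 32 passed the filter (1 FPKM or more in no fewer than 4 of the 8 libraries), and 9 of them fell: Pfkl, Aldoa, Tpi1, Gapdh, Pgk1, Pgam1, Eno1, Ldha and Slc16a1 (limma on log2(FPKM + 1), Benjamini-Hochberg adjustment over all 12524 tested genes, threshold 0.05). That is 28.1% of the tested members, against 13.8% of all tested genes that fell. Another 5 rose, Slc2a3, Pfkfb3, Pfkfb4, Eno3 and Ldhb, the last of which passed the filter only through the knockout libraries. That is 15.6% and close to the 14.0% of all tested genes that rose. Called in either direction were 43.8% of the members and 27.9% of all tested genes. The groups did not overlap for 10 members that were lower in the knockout, against 15.0% of all tested genes, and for 5 that were higher, against 16.7%. Quantile normalization moved the abundant members upward: Tpi1 went from -1.72 to -1.18, Ldha from -1.68 to -1.13, Pgam1 from -2.65 to -2.13, Gpi1 from -0.17 to 0.37 and Hk3 from -0.20 to 0.22, and 8 members then fell and 7 rose. The median change of the 32 members was -0.19 on the log2 scale, beside -0.03 over all tested genes. Without a filter the median over all 35 was -0.17, beside 0.01 over the 48500 genes. A further 6 members had an unadjusted p under 0.05 and were not called. The members that did not pass the filter were Aldoc, Pfkfb2 and Rpia.

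**Figure D1:**
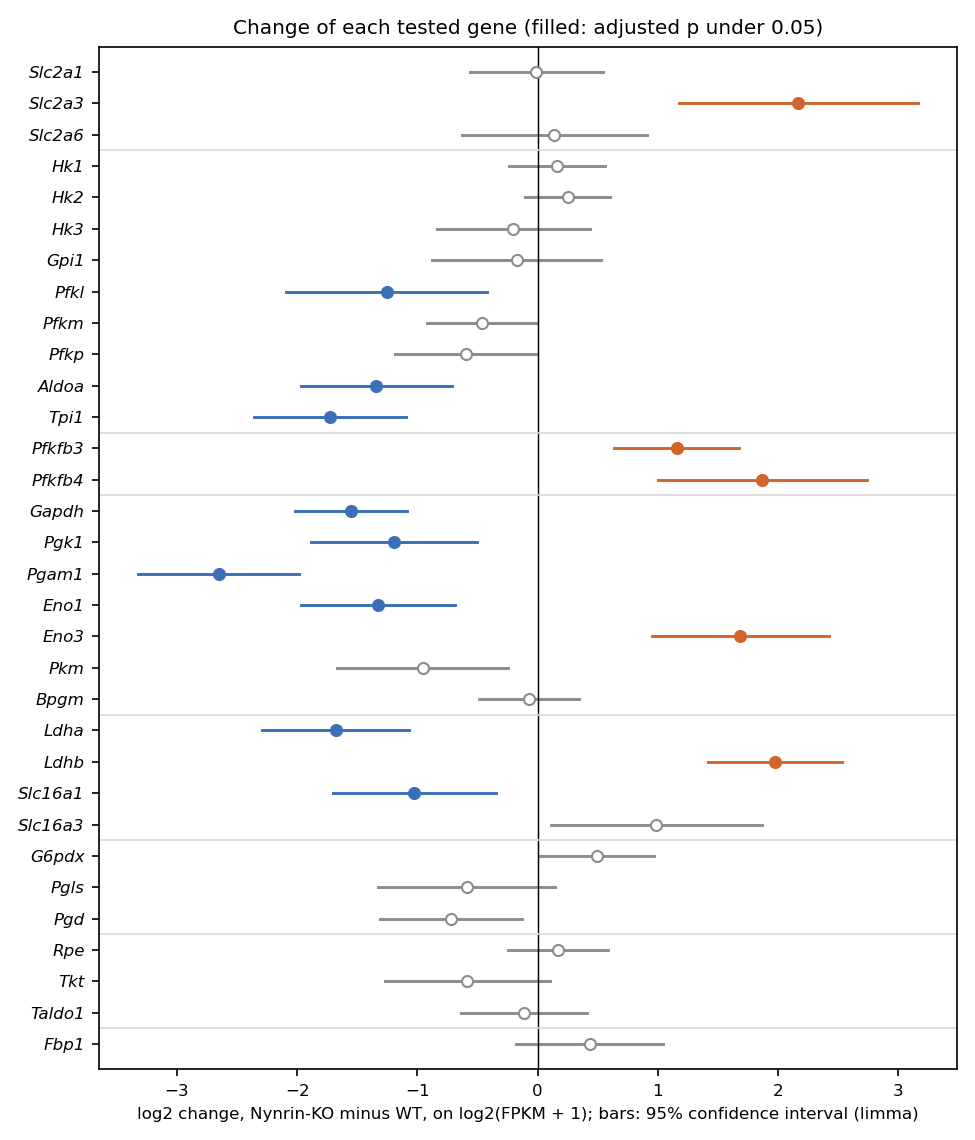
Log2 change of each of the 32 tested genes between Nynrin-KO and WT on the log2(FPKM + 1) scale, with 95% confidence intervals from limma (n = 4 libraries per group); genes are ordered by pathway step, with grey lines between steps, and filled points are past the adjusted threshold. The 9 filled points on the left run from -1.03 for Slc16a1 to -2.65 for Pgam1, and the 5 on the right run from 1.16 for Pfkfb3 to 2.17 for Slc2a3.

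The 35 genes together took 0.758% to 1.57% of the summed FPKM in the WT libraries and 0.257% to 0.682% in the Nynrin-KO libraries, so the ranges did not overlap. A share also depends on the rest of the sum. That rest included 3413 to 114450 FPKM of mature neutrophil markers in WT and 132215 to 301232 FPKM in the knockout. Gm10800 alone held 3349 to 142258 FPKM, depending on the library. The part of both in the lower share was not tested. Summed by step, the 7 lower glycolysis genes held 2388 to 3975 FPKM in WT and 673 to 1559 FPKM in the knockout. The 10 upper glycolysis genes held 1472 to 2138 FPKM against 519 to 1170 FPKM. The oxidative pentose phosphate enzymes, at 261 to 363 FPKM against 236 to 388 FPKM, and the non-oxidative enzymes, at 505 to 708 FPKM against 352 to 703 FPKM, overlapped between the groups. These sums are levels per length and are led by a few abundant genes.

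**Figure D2:**
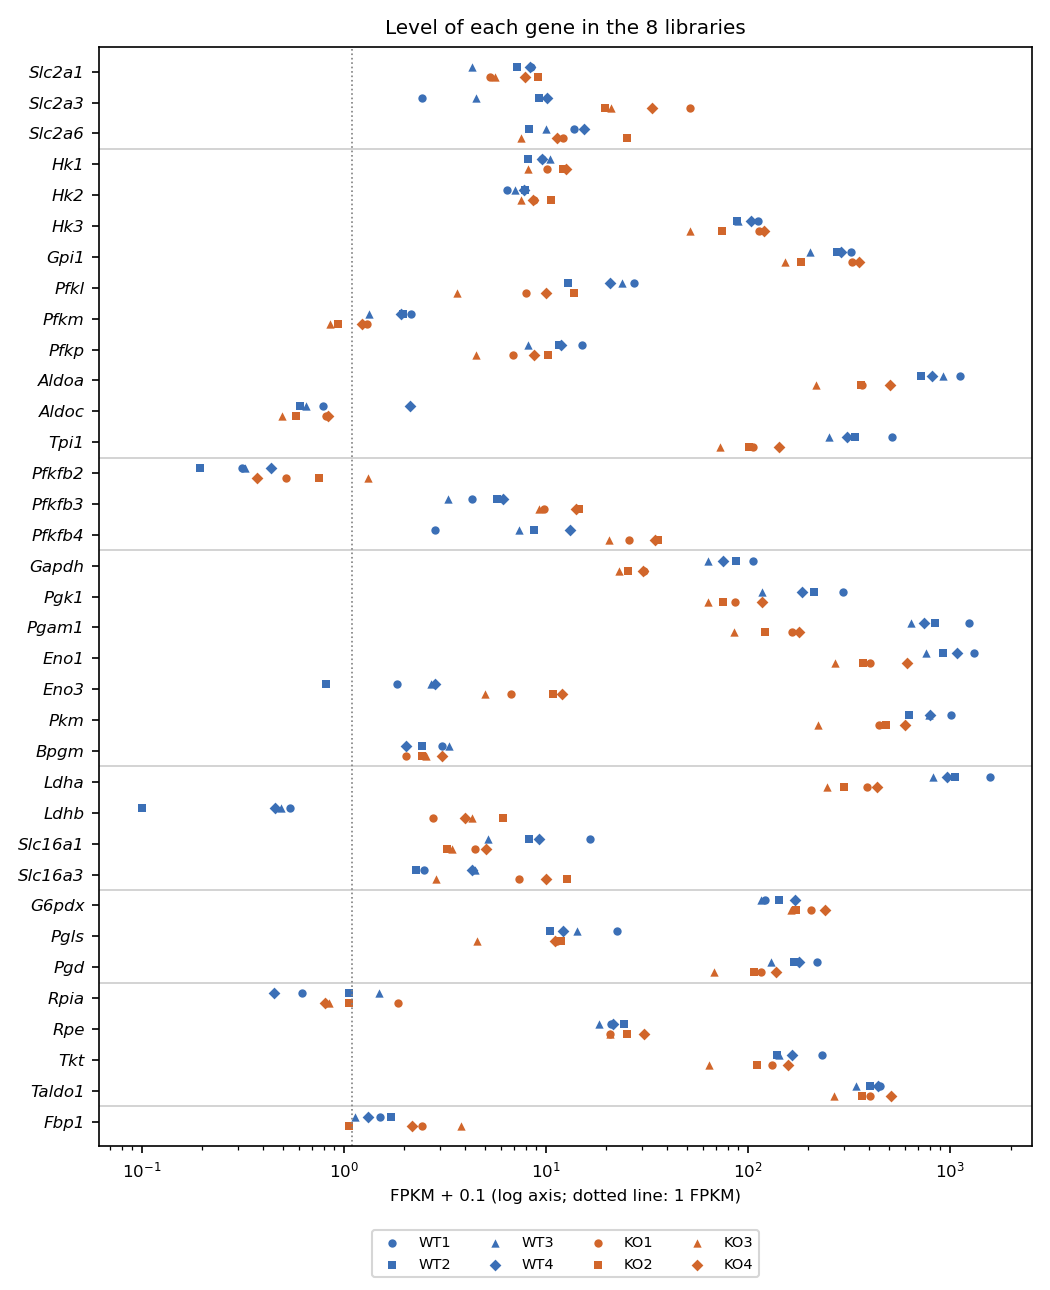
Level of each of the 35 genes in the 8 libraries, as FPKM plus 0.1 on a log axis; blue symbols are WT, orange symbols are Nynrin-KO, symbol shape gives the replicate number, and the dotted line marks 1 FPKM. Pgam1 and Ldha show blue and orange symbols wide apart at high level, Slc2a3, Pfkfb4 and Ldhb show orange symbols to the right of the blue ones, and the symbols of Gpi1, Hk3 and Taldo1 mix.

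Promoter sequence was set beside the members because 9 of them fell together and 5 rose. Of the 35 genes, 34 matched a RefSeq start (GRCm38.p6), giving 49 windows of the 250 bases before a start. Slc2a3 had none. The 4 windows printed here are those of Pgam1 (largest fall), Ldha, Pgk1 and Pfkfb4 (a gene that rose, without ACGTG), with coordinates on the plus strand: Pgam1 chr19:41911621-41911870, Ldha chr7:46845554-46845803, Pgk1 chrX:106186850-106187099 and Pfkfb4 chr9:108991652-108991901. Ldha has a second window, which holds neither motif, and the one with more matches was taken. The bases after the start lay in a GENCODE transcript of the gene for 42 of the 49 windows, including those of Pgk1 and Pfkfb4 and not those of Pgam1 and Ldha shown here. Pfkfb3, which also rose, has ACGTG in both of its windows. Capitals mark ACGTG, the core of the hypoxia response element, and GGGCGG, the GC box. On the opposite strand they read CACGT and CCGCCC. The E-box CACGTG contains ACGTG on both strands and counts as a match on each.
Pgam1: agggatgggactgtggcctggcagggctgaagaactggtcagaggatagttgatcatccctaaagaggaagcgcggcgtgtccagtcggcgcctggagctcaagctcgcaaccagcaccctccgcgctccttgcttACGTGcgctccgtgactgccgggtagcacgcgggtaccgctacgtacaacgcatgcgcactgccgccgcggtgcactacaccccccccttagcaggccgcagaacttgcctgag
Ldha: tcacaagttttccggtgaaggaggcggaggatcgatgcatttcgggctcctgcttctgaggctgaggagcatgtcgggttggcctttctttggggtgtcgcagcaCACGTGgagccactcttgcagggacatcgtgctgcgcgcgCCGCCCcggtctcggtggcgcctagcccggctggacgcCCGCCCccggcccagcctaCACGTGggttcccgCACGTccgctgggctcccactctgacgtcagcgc
Pgk1: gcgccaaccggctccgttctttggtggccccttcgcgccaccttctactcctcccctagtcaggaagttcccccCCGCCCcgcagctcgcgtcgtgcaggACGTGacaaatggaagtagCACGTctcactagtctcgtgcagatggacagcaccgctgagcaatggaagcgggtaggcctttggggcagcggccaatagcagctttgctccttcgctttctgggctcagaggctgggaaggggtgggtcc
Pfkfb4: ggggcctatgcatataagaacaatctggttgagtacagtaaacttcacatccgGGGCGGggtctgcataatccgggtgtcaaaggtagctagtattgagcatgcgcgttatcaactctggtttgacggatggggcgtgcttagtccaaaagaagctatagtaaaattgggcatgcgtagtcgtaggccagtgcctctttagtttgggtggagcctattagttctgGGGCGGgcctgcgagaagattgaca
The Pgam1 window held ACGTG 1 time, the Pgk1 window 2 times and the Ldha window 5 times, while the Pfkfb4 window held only the GC box, 2 times. By window, ACGTG was present in 17 of 49 windows of the members (34.7%) and in 16.6% of all 32851 windows in the RefSeq table. It was present in 6 of 14 windows of genes that fell and 2 of 5 windows of genes that rose. By gene with a window, ACGTG was present for 5 of 9 that fell, 1 of 4 that rose and 6 of 18 not called. Pfkl, Tpi1, Gapdh and Eno1, which fell, had it in no window. CACGTG was present in 10.2% of the members' windows and 6.02% of all windows, and GGGCGG in 59.2% against 32.7%. The members' windows were richer in GC, with a median of 59.2% against 52.4%, and a match of letters describes the window and not a site in use.

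Of the 3 glucose transporter genes, 1 rose (33.3%, against 14.0% of all tested genes). Slc2a3 encodes GLUT3, a high-affinity glucose transporter. WT1 to WT4 held 2.34, 9.15, 4.4 and 10 FPKM, and KO1 to KO4 held 52.0, 19.5, 21.01 and 33.5 FPKM. Every knockout library was above every WT library, with KO1 the highest. The knockout mean, 31.5 ± 15.04 FPKM, was 4.87 times the WT mean of 6.47 ± 3.7 FPKM (SD, n = 4 each). The log2 difference was 2.17 (SE 0.44, 95% confidence interval 1.17 to 3.17, limma adjusted p = 0.00815). Slc2a1, which encodes the widely expressed GLUT1, was at 6.99 ± 1.93 FPKM in WT and 6.89 ± 1.84 FPKM in the knockout, and the interval of its log2 change ran from -0.56 to 0.54 (adjusted p = 0.98). Slc2a6, a lysosomal transporter, ranged from 8.18 to 15.3 FPKM in WT and from 7.47 to 25.2 FPKM in the knockout, with KO2 the highest (log2 change 0.14, adjusted p = 0.793). The sum of the 3 transporters was 18.6 to 33.5 FPKM in WT and 34.0 to 69.3 FPKM in the knockout. The call of Slc2a3 held in 21 of 22 alternatives and missed the threshold among the 5 libraries with high Gm10800 (log2 change 2.02, adjusted p = 0.0585).

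Hexokinases trap glucose in the cell by phosphorylating it, and none of the 3 was called. Hk3, the form known from myeloid cells, was the most abundant, at 113, 88.1, 89.9 and 104 FPKM in WT1 to WT4 and 113, 74.7, 51.7 and 121 FPKM in KO1 to KO4. KO3 was lowest and KO4 highest, and the groups overlapped (log2 change -0.20, 95% confidence interval -0.84 to 0.43, adjusted p = 0.63). Hk1 and Hk2 lay between 6.36 and 12.6 FPKM in all libraries, with log2 changes of 0.16 and 0.25 (adjusted p = 0.54 and 0.261). Gpi1, which isomerises glucose 6-phosphate at the point where the pentose phosphate pathway branches off, stood at 274 ± 51 FPKM in WT and 255 ± 102 FPKM in the knockout. Its interval, -0.88 to 0.53, included 0 (adjusted p = 0.713).

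Phosphofructokinase 1, built from Pfkl, Pfkm and Pfkp subunits, catalyses the committed step of glycolysis. Pfkl, the liver-type subunit, was at 27.4, 12.8, 23.9 and 20.6 FPKM in WT1 to WT4 and at 7.92, 13.7, 3.52 and 9.99 FPKM in KO1 to KO4. WT2 lay below KO2, so the groups overlapped although the gene fell by 1.25 on the log2 scale (SE 0.37, adjusted p = 0.0333). Its call was lost in 10 of 22 alternatives, among them the fits without WT1 (adjusted p = 0.0851), without WT3 (0.0702), without WT4 (0.0667), without KO1 (0.0716) and without KO4 (0.0545). Pfkp, the platelet-type subunit, was at 8.1 to 15.1 FPKM in WT and 4.41 to 10.2 FPKM in the knockout, with a log2 change of -0.59 (adjusted p = 0.123). Pfkm, the muscle-type subunit, was low, at 1.24 to 2.06 FPKM against 0.76 to 1.21 FPKM. Its groups did not overlap, but its log2 change of -0.46 was not called (adjusted p = 0.122), and KO3 held only 4 of its reads. It was called with array weights (adjusted p = 0.0487) and by voom on the recovered reads (log2 change -0.83, adjusted p = 0.0259).

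The PFKFB enzymes make and break down fructose 2,6-bisphosphate, the main activator of phosphofructokinase 1, and both tested members rose while Pfkl fell. Pfkfb3, the form with the strongest kinase bias, was at 4.22, 5.62, 3.18 and 6.08 FPKM in WT1 to WT4 and at 9.67, 14.6, 9.12 and 14.1 FPKM in KO1 to KO4. All 4 knockout libraries were above all WT libraries, a 2.48-fold difference of the means (log2 change 1.16, SE 0.23, 95% confidence interval 0.64 to 1.68, limma adjusted p = 0.00734). Pfkfb4 was at 2.75, 8.67, 7.3 and 13.1 FPKM in WT and at 25.7, 36.1, 20.4 and 34.9 FPKM in the knockout. The WT values spread widely, with WT1 lowest, and did not reach those of the knockout. The difference was 3.68-fold (log2 change 1.87, SE 0.38, 95% confidence interval 1.0 to 2.74, adjusted p = 0.00837). Pfkfb2 was below 1 FPKM in 7 libraries and at 1.22 FPKM in KO3 from 10 reads, and was not tested. Among the 5 libraries with high Gm10800 neither rise passed the threshold, with log2 changes of 0.84 for Pfkfb3 (adjusted p = 0.134) and 1.20 for Pfkfb4 (adjusted p = 0.0591).

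Aldolase cleaves fructose 1,6-bisphosphate into 2 triose phosphates, and triose phosphate isomerase interconverts them. Aldoa (chr7:126795234-126800751) was at 1122, 723, 931 and 822 FPKM in WT1 to WT4 and at 368, 366, 218 and 509 FPKM in KO1 to KO4. The highest knockout library, KO4, was below the lowest WT library, WT2. The means of 899 ± 171 and 365 ± 119 FPKM differed by 2.46 times (log2 change -1.34, SE 0.28, 95% confidence interval -1.97 to -0.71, limma adjusted p = 0.00861). Under quantile normalization the change was -0.67 and missed the threshold (adjusted p = 0.053). The second Aldoa gene model was at most 1.37 FPKM in any library and Aldoc, the brain-type aldolase, at most 2.04 FPKM. Neither was tested. Tpi1 (chr6:124810586-124814296) was at 516, 341, 253 and 309 FPKM in WT and at 106, 102, 73.2 and 142 FPKM in the knockout. Its WT values were all higher than its knockout values, by 3.35 times in the mean (log2 change -1.72, SE 0.28, 95% confidence interval -2.36 to -1.09, adjusted p = 0.00339).

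From glyceraldehyde 3-phosphate onward, 4 of the 7 lower glycolysis genes fell (57.1%, against 13.8% of all tested genes) and 1 rose (14.3%, against 14.0%). Pgam1 (chr19:41911923-41918660) encodes phosphoglycerate mutase, which moves the phosphate of 3-phosphoglycerate to the neighbouring carbon. It stood at 1239, 847, 644 and 743 FPKM in WT1 to WT4 and at 166, 122, 85.7 and 180 FPKM in KO1 to KO4. The lowest WT library was far above the highest knockout library. The means of 868 ± 261 and 138 ± 42.8 FPKM differed by 6.28 times, the largest fall among the 32 tested members (log2 change -2.65, SE 0.30, 95% confidence interval -3.32 to -1.98, limma adjusted p = 0.00146). It kept its call in all 22 alternatives, between -2.80 and -2.13.

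Gapdh, the dehydrogenase that makes NADH at the entry to the lower steps, was at 106, 87.1, 63.7 and 75.4 FPKM in WT and at 30.4, 25.6, 23.0 and 30.2 FPKM in the knockout. The 4 knockout values were close together and all below the WT values (log2 change -1.55, SE 0.21, limma adjusted p = 0.00194). The level of Gapdh is a count on the gene's own model only, and its many pseudogene copies are treated further on. Pgk1 (chrX:106187100-106203699) encodes phosphoglycerate kinase, the first step that returns ATP. It was at 296, 213, 118 and 186 FPKM in WT and at 86.7, 75.7, 63.6 and 117 FPKM in the knockout. WT3, at 118 FPKM, and KO4, at 117 FPKM, nearly met (log2 change -1.20, SE 0.31, adjusted p = 0.02). The fall of Pgk1, which is X-linked, missed the threshold in 5 of 22 alternatives: without WT2 (adjusted p = 0.0554), without KO2 (0.0537), without WT1 and KO1 (0.0862), among the 5 libraries with high Gm10800 (0.0812) and with no filter (0.067). Under quantile normalization it was called at -0.72.

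Enolase makes phosphoenolpyruvate, and its forms moved in opposite directions. Eno1 (chr4:150236721-150248879) was at 1312, 921, 763 and 1087 FPKM in WT1 to WT4 and at 403, 373, 272 and 616 FPKM in KO1 to KO4. The groups did not overlap, with KO4 closest to WT3 (means 1021 ± 235 and 416 ± 144 FPKM, log2 change -1.33, SE 0.28, 95% confidence interval -1.97 to -0.69, limma adjusted p = 0.00973). Without WT1 and KO1 together the fall of Eno1 missed the threshold (adjusted p = 0.0573), and under quantile normalization it was -0.72 (adjusted p = 0.0485). Eno3, the muscle-type enolase, was at 1.74, 0.723, 2.61 and 2.74 FPKM in WT and at 6.61, 10.8, 4.9 and 12.0 FPKM in the knockout. Every knockout library was above every WT library, a 4.39-fold difference at a low level (log2 change 1.69, SE 0.33, 95% confidence interval 0.95 to 2.43, adjusted p = 0.00652). The Eno3 values rest on 8 to 90 reads in WT and 14 to 537 reads in the knockout, and the rise was not called among the 5 libraries with high Gm10800 (log2 change 1.23, adjusted p = 0.122).

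Pyruvate kinase (Pkm) makes pyruvate and the second ATP of the lower steps. It was at 1017, 632, 793 and 803 FPKM in WT and at 446, 485, 222 and 601 FPKM in the knockout. The groups did not overlap and KO4 lay closest to WT2, but the gene was just short of the threshold (means 811 ± 158 and 439 ± 159 FPKM, log2 change -0.95, SE 0.32, 95% confidence interval -1.67 to -0.24, limma adjusted p = 0.0506). Pkm was called in 4 of 22 alternatives, among them the fit without KO4 (adjusted p = 0.0394), and its change shrank to -0.25 under quantile normalization (adjusted p = 0.496). Bpgm, which makes the 2,3-bisphosphoglycerate known from red cells, was at 1.93 to 3.21 FPKM in WT and 1.95 to 2.97 FPKM in the knockout (log2 change -0.07, adjusted p = 0.813).

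Lactate dehydrogenase subunits also moved in opposite directions. Ldha (chr7:46841475-46855627), the subunit common in glycolytic tissue, was at 1575, 1060, 823 and 965 FPKM in WT1 to WT4 and at 388, 298, 246 and 438 FPKM in KO1 to KO4. All WT libraries were well above the highest knockout library. The means of 1106 ± 328 and 342 ± 86.6 FPKM differed by 3.23 times (log2 change -1.68, SE 0.27, 95% confidence interval -2.29 to -1.07, limma adjusted p = 0.00329). Ldhb, the subunit common in oxidative tissue, was at 0.44, 0, 0.391 and 0.356 FPKM in WT and at 2.67, 6.02, 4.2 and 3.87 FPKM in the knockout. It rose by 1.98 on the log2(FPKM + 1) scale (SE 0.25, 95% confidence interval 1.42 to 2.54, adjusted p = 0.00167). Ldhb passed the filter only through the 4 knockout libraries, so a difference was bound to appear among genes kept this way. It was read 19, 0, 1 and 8 times in WT and 33, 181, 10 and 145 times in the knockout.

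Slc16a1 and Slc16a3 encode the lactate transporters MCT1 and MCT4. Slc16a1 was at 16.5, 8.2, 5.07 and 9.19 FPKM in WT and at 4.36, 3.16, 3.34 and 4.98 FPKM in the knockout. WT3 and KO4 lay side by side at the border between the groups, which did not overlap (log2 change -1.03, SE 0.30, 95% confidence interval -1.71 to -0.35, limma adjusted p = 0.0325). Slc16a1 lost its call in 9 of 22 alternatives, including the fits without WT1 (0.058), WT2 (0.0627), WT4 (0.0677), KO1 (0.0604), KO2 (0.0839) or KO3 (0.0599), all as adjusted p. Slc16a3 was at 2.41, 2.18, 4.35 and 4.24 FPKM in WT and at 7.3, 12.7, 2.78 and 9.93 FPKM in the knockout. KO3, the shallowest library, lay among the WT values, and the gene was not called with it (log2 change 0.99, adjusted p = 0.0891) but was without it (log2 change 1.36, adjusted p = 0.00855).

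No pentose phosphate gene was called by limma without library weights on the deposited scale among the 6 of 7 that were tested, and 2 had an unadjusted p under 0.05. Of all tested genes 27.9% were called in either direction, and 6 genes are too few to set their share apart from that. Other scalings or models called G6pdx, Taldo1 or Pgd, as given beside each. G6pdx, the X-linked entry enzyme of the oxidative arm, was at 121, 142, 116 and 172 FPKM in WT1 to WT4 and at 205, 173, 163 and 240 FPKM in KO1 to KO4. WT4 lay above KO3 and just below KO2, so the groups overlapped (means 138 ± 25.4 and 195 ± 34.8 FPKM, log2 change 0.50, SE 0.21, 95% confidence interval 0.02 to 0.97, adjusted p = 0.108). Under quantile normalization G6pdx was called, at 0.996 (adjusted p = 0.00804). Pgd, the second NADPH-producing dehydrogenase, was at 220, 169, 130 and 178 FPKM in WT and at 116, 107, 67.9 and 137 FPKM in the knockout. KO4, at 137 FPKM, lay above WT3, at 130 FPKM. The log2 change of Pgd was -0.72 (SE 0.26, 95% confidence interval -1.31 to -0.13, adjusted p = 0.0707), with the opposite sign to that of G6pdx. Voom on the recovered reads called Pgd (log2 change -0.66, adjusted p = 0.0381), as did limma with array weights (adjusted p = 0.0427).

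Pgls, the lactonase between both dehydrogenases, was at 10.5 to 22.5 FPKM in WT and at 11.3, 11.9, 4.48 and 11.0 FPKM in KO1 to KO4, with KO3 apart from the other 3 (log2 change -0.59, adjusted p = 0.208). In the non-oxidative arm, Tkt (transketolase) was at 233, 139, 143 and 166 FPKM in WT and at 132, 111, 64.5 and 159 FPKM in the knockout. KO4 lay above WT2 and WT3, and the interval of its log2 change, -1.27 to 0.10, included 0 (adjusted p = 0.182). Taldo1 (transaldolase) was at 453, 405, 342 and 442 FPKM against 405, 368, 266 and 513 FPKM, with the highest and the lowest value both in the knockout (log2 change -0.11, 95% confidence interval -0.64 to 0.41, adjusted p = 0.756). Under quantile normalization Taldo1 turned to a called 0.57 (adjusted p = 0.0339). Rpe, the ribulose phosphate epimerase, was at 18.3 to 24.4 FPKM in WT and 20.7 to 30.5 FPKM in the knockout (log2 change 0.17, adjusted p = 0.529). Rpia, the ribose phosphate isomerase, was at 0.35 to 1.4 FPKM against 0.708 to 1.77 FPKM and was not tested. Fbp1, which reverses the phosphofructokinase step in gluconeogenesis, was at 1.03 to 1.62 FPKM in WT and 0.968 to 3.7 FPKM in the knockout (log2 change 0.44, adjusted p = 0.263).

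Shares within gene families show which form made up most of each transcript pool. The summed level of both lactate transporters was 13.0 ± 4.28 FPKM in WT and 12.1 ± 4.41 FPKM in the knockout (SD, n = 4 each), while the share of Slc16a1 in that sum was 72.1% ± 14.4 in WT and 36.3% ± 14.3 in the knockout. WT3, at 53.8%, and KO3, at 54.6%, met in the middle. Slc2a3 made up 25.1% ± 11.8 of the summed glucose transporters in WT and 59.2% ± 16.3 in the knockout, and KO2, at 36.3%, lay below WT2, at 37.4%. Hk3 kept 76.7% to 87.7% of the hexokinase sum in all 8 libraries. Pfkl made up 60.7% ± 9.37 of the phosphofructokinase 1 sum in WT and 49.1% ± 6.26 in the knockout, with overlap. Eno3 remained a small part of the enolase sum, at most 0.34% in WT and 2.81% in the knockout. Ldhb made up at most 0.0475% of the lactate dehydrogenase sum in WT and 1.98% in the knockout. These shares were not tested.

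**Figure D3:**
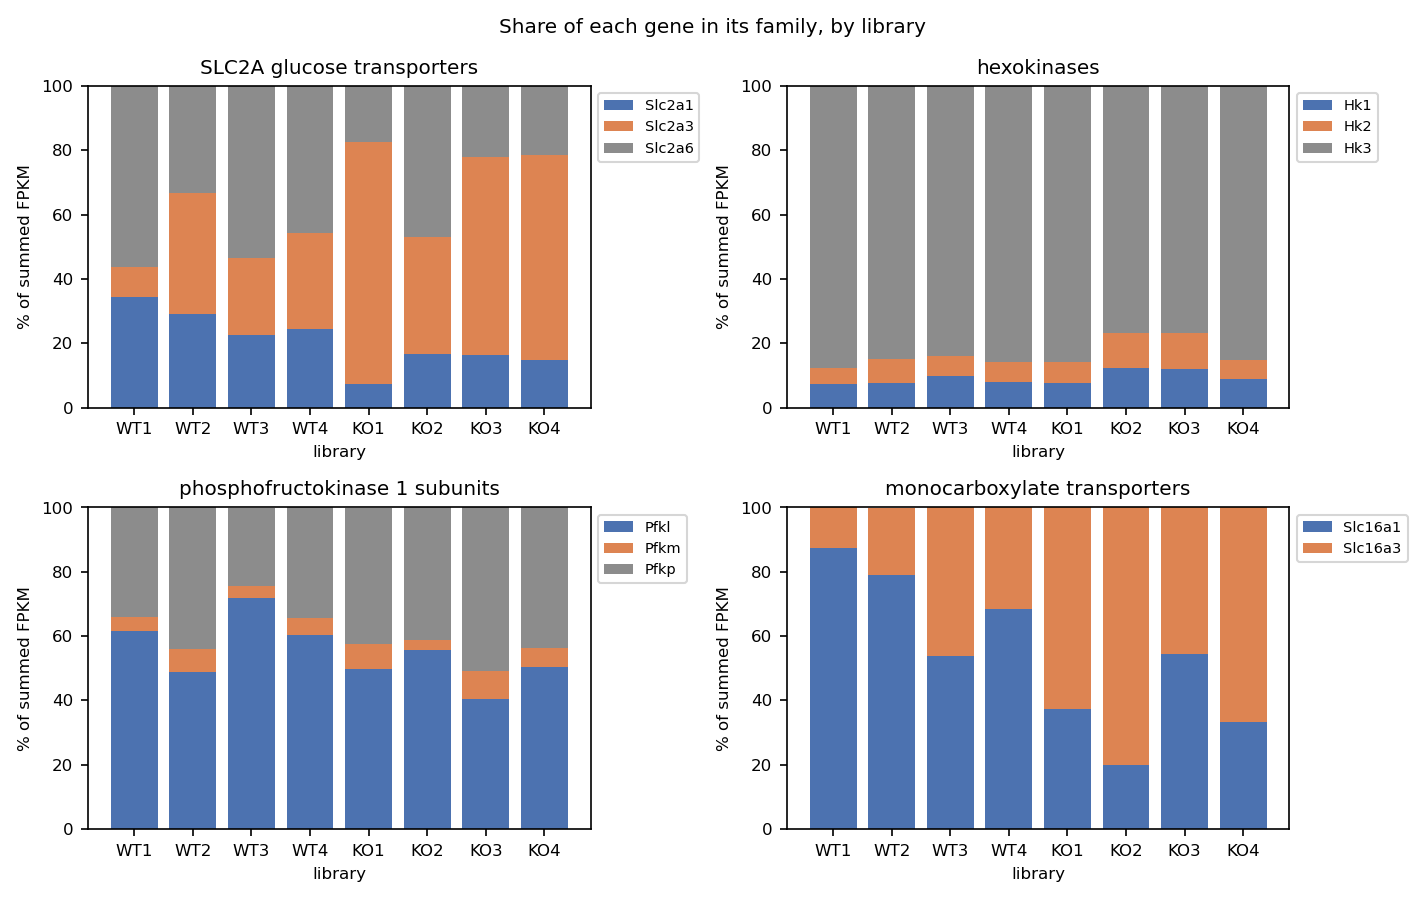
Share of each gene in the summed FPKM of its family in each library, in percent, for glucose transporters, hexokinases, phosphofructokinase 1 subunits and lactate transporters. The orange share of Slc2a3 in the first panel is larger in KO1, KO3 and KO4 than in any WT library, Hk3 fills most of every bar of the second, and Slc16a1 (blue) lies below 40% in KO1, KO2 and KO4 in the last.

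Copies of glycolytic genes elsewhere in the genome can draw reads from the parent gene. Processed pseudogenes and unnamed coding models were assigned to the named gene whose transcript they matched best with blastn. Gapdh had 323 such copies, 316 of them processed pseudogenes, at a median identity of 90.7%. The copies took 50.5%, 78.2%, 86.5% and 74.1% of the combined reads of Gapdh and its copies in WT1 to WT4 and 79.4%, 52.6%, 92.3% and 55.9% in KO1 to KO4. The gene and its copies together held 701, 1316, 1555 and 959 reads per M recovered reads (rpm) in WT and 486, 177, 977 and 225 rpm in the knockout. With the copies added, KO3 lay above WT1 and WT4 and the groups overlapped, whereas the gene model alone separated them. The log2 ratio of the knockout mean to the WT mean was -1.60 for the gene model, -1.19 for the copies and -1.28 for both together. The share of the copies followed the level of Gm10800. It was 74.1% to 92.3% in WT2, WT3, WT4, KO1 and KO3, the libraries with high Gm10800, and 50.5% to 55.9% in WT1, KO2 and KO4. The cause of this split was not tested. How the reads divide between Gapdh and its copies is uncertain in these data.

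For the other abundant members whose groups did not overlap, the copies took few reads and left the separation in place. Gpi1 and Taldo1, whose groups overlapped on the gene alone, had 1 copy each and still overlapped with it. The copy took 0.336% to 1.06% of the combined reads for Gpi1 and 1.08% to 6.06% for Taldo1. Pgam1 had 6 copies with 1.07% to 1.86% of the combined reads, Ldha 29 with 0.561% to 8.01%, and Eno1 15 with 5.29% to 9.77%. Tpi1 had 8 copies with 0.446% to 2.71%, Aldoa 10 with 0.0842% to 3.30%, Pgk1 6 with at most 1.64%, and Pkm 14 with 1.41% to 2.95%. With copies added, the log2 ratio of the mean rpm in the knockout to that in WT was -2.65 for Pgam1, -1.68 for Ldha, -1.74 for Tpi1 and -1.30 for Eno1. The combined reads of Aldoa, Tpi1, Pgk1, Pgam1, Eno1, Pkm and Ldha did not overlap between the groups. Ldhb, which is not abundant, has 1 pseudogene, and both together held 0.283 to 1.02 rpm in WT and 4.75 to 8.03 in the knockout. The pseudogene took 100%, 50% and 52.9% of these reads in WT2, WT3 and WT4. Ldhb passed the filter only through the knockout libraries, so its separation was bound to appear among genes kept this way.

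**Figure D4:**
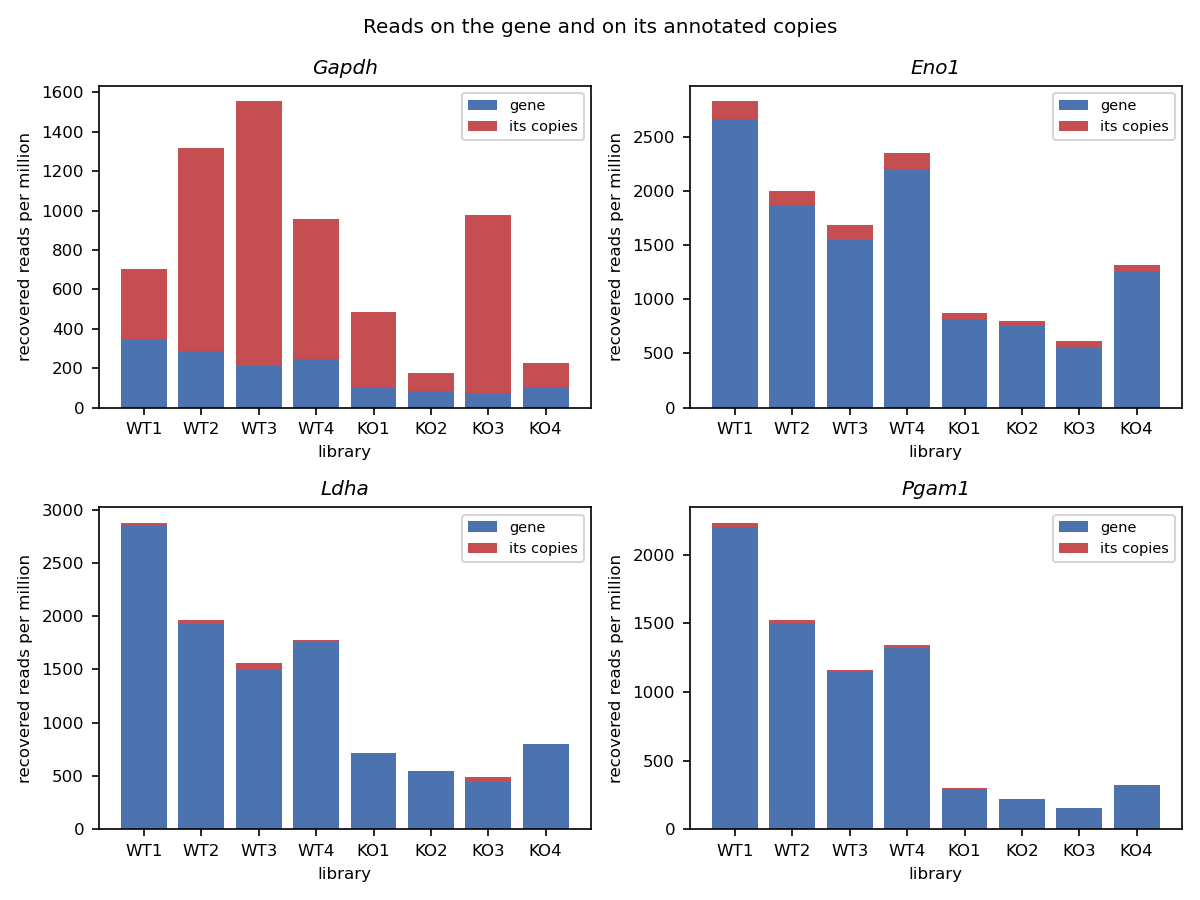
Recovered reads, in rpm, on Gapdh, Eno1, Ldha and Pgam1 (blue) and on their annotated copies (red) in each library, stacked from 0. Red makes up most of every Gapdh bar, from 50.5% in WT1 to 92.3% in KO3, and a thin cap on the bars of the other 3 genes.

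Genes around the pathway were described by 6 further lists, whose shares called are read against the 27.9% over all tested genes. Among 13 tested genes that govern pyruvate entry into mitochondria 2 fell and none rose (15.4%). Pdk1, a kinase that inhibits pyruvate dehydrogenase, was at 8.79 ± 2.73 FPKM in WT and 2.61 ± 0.608 FPKM in the knockout (log2 change -1.41, limma adjusted p = 0.00395), and Pdp2, a phosphatase of the same complex, fell by 0.92 on the log2 scale (adjusted p = 0.0388). Of 31 other isozymes and sugar transporters only 12 were tested, with 1 rise and 1 fall (16.7%). Adpgk, a glucokinase that uses ADP, rose from 19.7 ± 11.5 FPKM in WT to 81.3 ± 33.9 FPKM in the knockout (log2 change 2.07, adjusted p = 0.00999), and G6pc3, a glucose 6-phosphatase needed in neutrophils, fell by 0.99 (adjusted p = 0.0313).

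Among 17 tested genes of glycogen and hexose phosphate metabolism 4 rose and 1 fell (29.4%, near the background). Pygl, a glycogen phosphorylase, was at 69.1 ± 25.5 FPKM in WT and 182 ± 50.7 FPKM in the knockout (log2 change 1.41, adjusted p = 0.0101). Gyg, the primer protein of glycogen, rose by 0.76 on the log2 scale (adjusted p = 0.0464) and Ugp2, which makes UDP-glucose, by 0.72 (adjusted p = 0.022). Galk1, the galactokinase, fell by 1.34 (adjusted p = 0.00652).

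Of 20 tested regulators of glycolysis 3 fell and 4 rose (35%). Myc, a transcription factor known to drive glycolytic genes, was at 64.5 ± 25.3 FPKM in WT and 18.8 ± 4.4 FPKM in the knockout (log2 change -1.69, adjusted p = 0.00372). Egln3, an oxygen sensor and itself a hypoxia-induced gene, fell by 1.21 (adjusted p = 0.00217), Trp53, which encodes p53, fell by 1.33 (adjusted p = 0.013), and Prkaa1, a catalytic subunit of AMPK, rose by 0.78 (adjusted p = 0.0138). Hif1a was at 9.71 ± 1.13 FPKM against 13.8 ± 3.1 FPKM and was not called (log2 change 0.45, adjusted p = 0.107). Txnip, the inhibitor of glucose uptake named in the title of the series, was at 74.5 ± 11.5 FPKM in WT and 130 ± 51.6 FPKM in the knockout, where KO1 overlapped the WT range (log2 change 0.72, adjusted p = 0.0966).

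Genes that supply NADPH by other routes or use ribose had 6 falls and 1 rise among 13 tested (53.8%). Idh2, the mitochondrial NADP-dependent isocitrate dehydrogenase, was at 161 ± 69.7 FPKM in WT and 36.5 ± 12.2 FPKM in the knockout (log2 change -2.10, adjusted p = 0.0037). Nadk, which phosphorylates NAD to NADP, rose from 44.9 ± 9.33 to 112 ± 33.7 FPKM (log2 change 1.27, adjusted p = 0.00785). Ppat, the first enzyme of purine synthesis, fell by 1.17 (adjusted p = 0.00677) and Mthfd1, of the folate cycle, by 1.32 (adjusted p = 0.0123). Of 10 tested genes on the list of redox shuttles, most of which help carry glycolytic NADH into mitochondria, 5 fell and none rose (50%). One of the 5 was Slc25a1, the mitochondrial citrate carrier, which is not part of an NADH shuttle (fell by 0.84, adjusted p = 0.0211). The others were Got1 (fell by 1.14, adjusted p = 0.00218), Slc25a13 (fell by 0.85, adjusted p = 0.0101), Got2 (fell by 1.37, adjusted p = 0.0127) and Mdh2, at 225 ± 75.5 FPKM in WT and 90.4 ± 32.6 FPKM in the knockout (adjusted p = 0.0199).

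The changes were also followed in subsets of libraries. WT1 stood apart in the neutrophil markers and KO1 in the sex-linked genes, and Gm10800 split the libraries another way. Leaving out WT1 and KO1 leaves only libraries in which sex and genotype cannot be told apart. Without WT1 and KO1 together, 5 of the 9 genes that fell kept their call and all 9 kept their direction, and the 5 that rose kept their call. Among WT2, WT3, WT4, KO1 and KO3, the libraries with high Gm10800, 6 members fell and 1, Ldhb, rose. Ldhb, which is counted in each of these subsets, passed the filter only through the knockout libraries. Its rise was therefore bound to appear. Without WT1 alone 7 members fell and 5 rose. All 14 called members kept their direction in every alternative that gave a value. Tpi1, Gapdh, Pgam1 and Ldha also kept their call in every one.

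**Figure D5:**
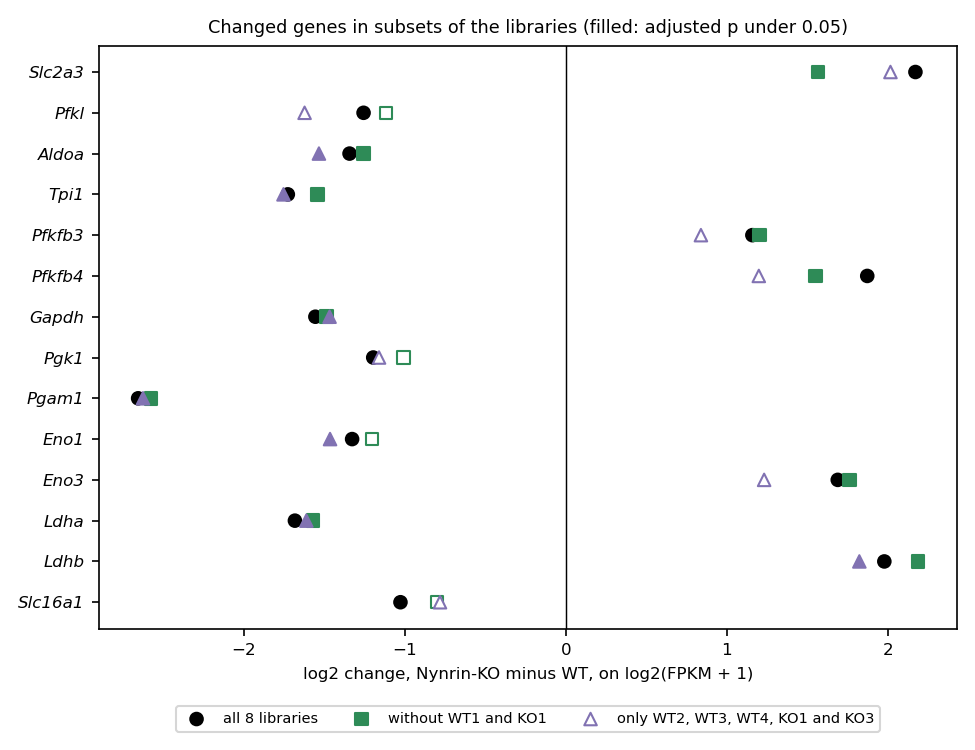
Log2 change of the 14 called genes with all 8 libraries (black circles), without WT1 and KO1 (green squares) and with only WT2, WT3, WT4, KO1 and KO3 (purple triangles), on the log2(FPKM + 1) scale; filled symbols are past the adjusted threshold. All symbols stay on the same side of 0, those of Pgam1 lie between -2.65 and -2.57, and the triangles of Slc2a3, Pfkfb3, Pfkfb4 and Eno3 are open.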

How the data were processed

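The labels give 8 mouse RNA-seq libraries, 4 WT and 4 Nynrin-KO, with replicate numbers from the titles. The authors deposited FPKM values, scaled by them for transcript length and library depth, in 1 table of 48500 genes. The header names no unit, and FPKM was inferred because values times the gene's longest GENCODE M21 transcript length summed to nearly the same total in every library (99.5% of the genes matched that annotation, GRCm38, from which coordinates, counted from 1, were taken). Bowtie 0.12.9, Cufflinks 2.1.1, HTSeq and mm10 are named in the submitters' processing notes without roles. How reads were counted, with or without strand, and what was done with multi-mapping reads are not described by the sources used here, so reads of near-identical copies and antisense genes may be split in ways that cannot be seen.

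With 1 step per library, 99.4% to 99.7% of the values came out as whole reads (tolerance 0.1 read), 1.83 to 33.1 M reads per library. Limma 3.58.1 in R 4.3.3 was run on log2(FPKM + 1) for genes that reached 1 FPKM in no fewer than 4 of 8 libraries, with trend and robust options, two-sided, with Benjamini-Hochberg adjustment over all 12524 tested genes at 0.05. Fold changes on this scale understate the change of genes at low level. SD and SE are over 4 libraries per group. Copies were assigned with blastn 2.17.0 (e-value at most 1e-20). Promoter windows, the 250 bases before each start, came from RefSeq (GRCm38.p6). Plots used Python 3.11.15 with matplotlib 3.10.9.

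The members, the further lists and the tests were chosen with earlier results of these data known. By the rule for named genes, all members are named, with up to 4 called genes of smallest p per further list and Nynrin, Txnip, Xist, Ddx3y and Gm10800. Hif1a, Slc25a1, Nkg7, Cd3e, Kit, Cd34, Flt3, Mpo, Elane, Prtn3, Ctsg, Ly6g, Hoxa9, Meis1, Tfrc, S100a8, S100a9 and Ngp fall outside it and were named after their values were seen. Alternatives covered the pseudocount, filter, scaling, limma options, library weights, replicate number, voom on the recovered reads, and libraries left out.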

Additional observations from a re-analysis of the deposited data

Results flagged for a closer look

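In 3 of 70 groups of 4 values (each member in each genotype), 1 library stood apart from the other 3 by a gap larger, relative to the group's whole range, than Dixon's 95% critical value. Chance alone gives such a gap in about 1 of 20 groups. Pgls, the lactonase of the oxidative pentose phosphate arm, was at 4.48 FPKM in KO3 and at 11.0 to 11.9 FPKM in the other knockout libraries (gap 0.922 of the range). KO3 was also the shallowest library, and the part of depth in this value was not tested. Ldhb was at 0 FPKM in WT2 and at 0.356 to 0.44 FPKM in the other WT libraries (gap 0.834 of the range), values that rest on 1 to 19 reads. Aldoc was at 2.04 FPKM in WT4 and at 0.507 to 0.694 FPKM in the other WT libraries (gap 0.833 of the range), and was not tested.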

How the results depend on the processing

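Of 22 alternatives, most left the counts within 1.5 times. Without WT1 and KO1, 5 members fell, and over all genes 954 fell and 865 rose. With only WT2, WT3, WT4, KO1 and KO3, 1 member rose, and over all genes 736 fell and 258 rose, so 26.0% of the calls were higher, against 50.3% with all libraries. With no filter on low values, 908 genes fell and 790 rose. The cause of these differences was not tested, but the first 2 used fewer libraries and the last tested more genes. Leaving out each library in turn gave 7 to 9 members that fell and 5 to 6 that rose, and over all genes 1210 to 1859 that fell and 1153 to 1982 that rose, against 1754 with all libraries (1153 without WT1, 1166 without KO4). Taldo1, at -0.11, turned to 0.57 (adjusted p = 0.0339) under quantile normalization, and the cause was not tested. G6pdx was called under the same scaling (log2 change 0.996, adjusted p = 0.00804), and Aldoa lost its call there (log2 change -0.67, adjusted p = 0.053). The sign changed in 23 further comparisons of members called in neither fit. With 1.83 and 1.96 M reads, KO3 and WT3 limit the genes near 1 FPKM.

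The replicate numbers did not pair the libraries: the correlations of same-numbered libraries were -0.21, -0.39, 0.33 and 0.01, and only number 3 correlated best with its own number. With the replicate number as a block, 8 members fell and 5 rose, and 1481 genes fell and 1357 rose overall. Pfkl was not called in that fit (adjusted p = 0.0747).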
